A study of Mus musculus with 45 samples.

Results

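The 34 genes described here encode the machinery of mitosis and were taken by a list of gene symbols, with no threshold on measured values, from the 22904 genes of a bulk RNA sequencing series of mouse islets of Langerhans. All 34 symbols were found, each once, and all 34 were among the 20306 genes that passed the filter on low counts. Islets were taken at 16 weeks of age from female and male mice of 3 inbred wild-type strains that had been on their diet since 6 weeks of age. C57BL/6J is the standard laboratory strain, CAST/EiJ descends from wild-caught mice, and NZO/HlLtJ is a polygenic model of obesity in which males are prone to diabetes. Within each strain and sex, 1 group received 10% fat with fiber as the control diet and 1 group received 44% fat with fiber, which the series describes as high in fat and sugar. Each of the 12 groups held 4 libraries, apart from the male groups of NZO/HlLtJ on either diet and the male group of CAST/EiJ on 10% fat, with 3 libraries each.

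Mitosis begins when cyclin B binds and activates Cdk1, and it ends when the anaphase-promoting complex destroys the cyclins. In between, kinesins and microtubule-binding proteins build the spindle, and the kinetochore ties each chromosome to it. The spindle checkpoint holds anaphase back until all chromosomes are attached. The chromosomal passenger complex and the central spindle then guide cytokinesis. Most of these genes are transcribed only late in the cell cycle. The MuvB complex sits on a promoter element named CHR, where it represses in resting cells together with pocket proteins. In dividing cells it activates together with B-Myb and Foxm1, while NF-Y binds CCAAT boxes nearby. Adult beta cells divide rarely, and their division is known to increase when the demand for insulin rises, as in pregnancy and obesity. In RNA of whole islets, a higher level of these transcripts can come from more dividing cells or from more RNA per cell, and the deposited values cannot tell these apart.

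The promoters of 5 members are shown first because they carry the 2 elements, CHR and CCAAT, in different arrangements, Ccnb1 having CCAAT only. Cdk1, Plk1 and Ccnb1 stand for the core of mitotic entry, and Kif11 and Ccnb2 were added after their values were seen, as members called in 2 strains. Each window runs from 250 bases before to 50 bases after the annotated start, comes from RefSeq on GRCm38.p6, the C57BL/6J reference, and is written from 5′ to 3′ on the strand of the gene. Capitals mark matches to the CHR letters (TTTGAA or TTCGAA) and to CCAAT on either strand, so that TTCAAA and ATTGG are the same elements read from the other strand. On the minus strand, the window is chr10:69352863-69353162 for Cdk1, chr13:100786437-100786736 for Ccnb1 and chr9:70421505-70421804 for Ccnb2. On the plus strand, it is chr7:122159185-122159484 for Plk1 and chr19:37376132-37376431 for Kif11.
Cdk1: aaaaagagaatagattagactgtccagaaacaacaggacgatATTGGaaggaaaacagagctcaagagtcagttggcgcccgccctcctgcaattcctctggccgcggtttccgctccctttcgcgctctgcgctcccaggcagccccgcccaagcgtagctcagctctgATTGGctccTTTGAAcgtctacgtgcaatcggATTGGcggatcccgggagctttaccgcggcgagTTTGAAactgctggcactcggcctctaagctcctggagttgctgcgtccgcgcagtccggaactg
Plk1: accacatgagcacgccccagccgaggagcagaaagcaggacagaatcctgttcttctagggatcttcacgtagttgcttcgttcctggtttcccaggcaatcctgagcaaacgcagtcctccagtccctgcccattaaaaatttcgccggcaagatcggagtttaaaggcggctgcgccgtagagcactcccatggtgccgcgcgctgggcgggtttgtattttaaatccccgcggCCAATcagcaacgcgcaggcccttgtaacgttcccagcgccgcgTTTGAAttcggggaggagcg
Ccnb1: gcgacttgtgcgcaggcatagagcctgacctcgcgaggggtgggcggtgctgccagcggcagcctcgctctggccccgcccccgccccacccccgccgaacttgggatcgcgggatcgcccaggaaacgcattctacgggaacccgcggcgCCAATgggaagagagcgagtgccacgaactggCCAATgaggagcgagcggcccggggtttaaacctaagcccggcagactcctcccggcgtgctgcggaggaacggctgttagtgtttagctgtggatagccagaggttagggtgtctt
Kif11: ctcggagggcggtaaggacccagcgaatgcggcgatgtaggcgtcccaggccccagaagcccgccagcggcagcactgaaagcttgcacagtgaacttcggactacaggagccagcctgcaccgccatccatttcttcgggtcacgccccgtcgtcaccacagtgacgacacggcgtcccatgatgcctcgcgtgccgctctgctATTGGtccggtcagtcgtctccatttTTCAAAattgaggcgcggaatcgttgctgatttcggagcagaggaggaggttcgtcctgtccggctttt
Ccnb2: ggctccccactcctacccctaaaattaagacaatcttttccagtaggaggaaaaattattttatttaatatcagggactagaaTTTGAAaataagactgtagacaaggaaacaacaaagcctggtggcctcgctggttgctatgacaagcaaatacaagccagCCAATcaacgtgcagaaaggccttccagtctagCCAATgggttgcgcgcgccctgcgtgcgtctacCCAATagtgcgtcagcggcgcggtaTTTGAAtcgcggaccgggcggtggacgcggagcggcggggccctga

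A CHR match was found in many further members, and in 6 of them the match nearest to the start of transcription is shown with 12 bases on either side. They were chosen after their positions were seen to cover a checkpoint kinase, a kinetochore protein, 2 proteins of the central spindle and 2 chromosome proteins. They are written on the strand that reads the CHR letters, which for Top2a is the strand opposite to the gene, and capitals here mark the CHR match only. On the strand of the gene the match began at 15 from the annotated start for Bub1, 3 for Cenpf, 3 for Kif23, 6 for Racgap1, -98 for Mki67, which had no match within 50 bases of the start, and -23 for Top2a.
Bub1: ctgcgcggggaaTTCGAAtcgccggcggcc
Cenpf: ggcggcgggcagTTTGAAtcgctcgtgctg
Kif23: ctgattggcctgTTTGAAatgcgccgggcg
Racgap1: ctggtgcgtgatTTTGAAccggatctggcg
Mki67: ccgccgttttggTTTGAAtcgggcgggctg
Top2a: tccctagtttcaTTTGAAcctttatctagc

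Of the 34 members, 28 were matched in the RefSeq promoter table. Ccna2, Foxm1, Aurkb, Kif20a, Tpx2 and Pbk were not matched. A CHR match was present in 22 of the 28 members (78.6%), against 21.7% of the 27025 genes of the table. A gene was counted if any of its windows held a match. Within 50 bases of the start, 20 of the 28 (71.4%) had a CHR match, against 6.12% of all genes of the table. CCAAT was present in 20 members (71.4%), against 41.1%, and both elements together in 18 members (64.3%), against 9.65%. Both motifs were searched on both strands, and a match of one can share at most the base at its end with a match of the other. Ndc80, Kif15, Kif2c and Anln had a CHR match only, Ccnb1 and Cenpe had CCAAT only, and Melk, Nuf2, Nusap1 and Birc5 had neither in this window. Relative to the start, the median position was -16.5 bases for the 32 CHR matches and -74.5 bases for the 48 CCAAT matches, and 13 members had 2 or more CCAAT matches. In other gene lists the CHR share was 65.1% of 43 further mitotic genes, 37.5% of 8 genes of the MuvB complex and its partners, and 23.5% of 17 DNA replication genes. The CCAAT share in these lists was 62.8%, 50% and 64.7%, nearer to that of the members. A match is a description of the letters and not a measured binding site.

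**Figure D1:**
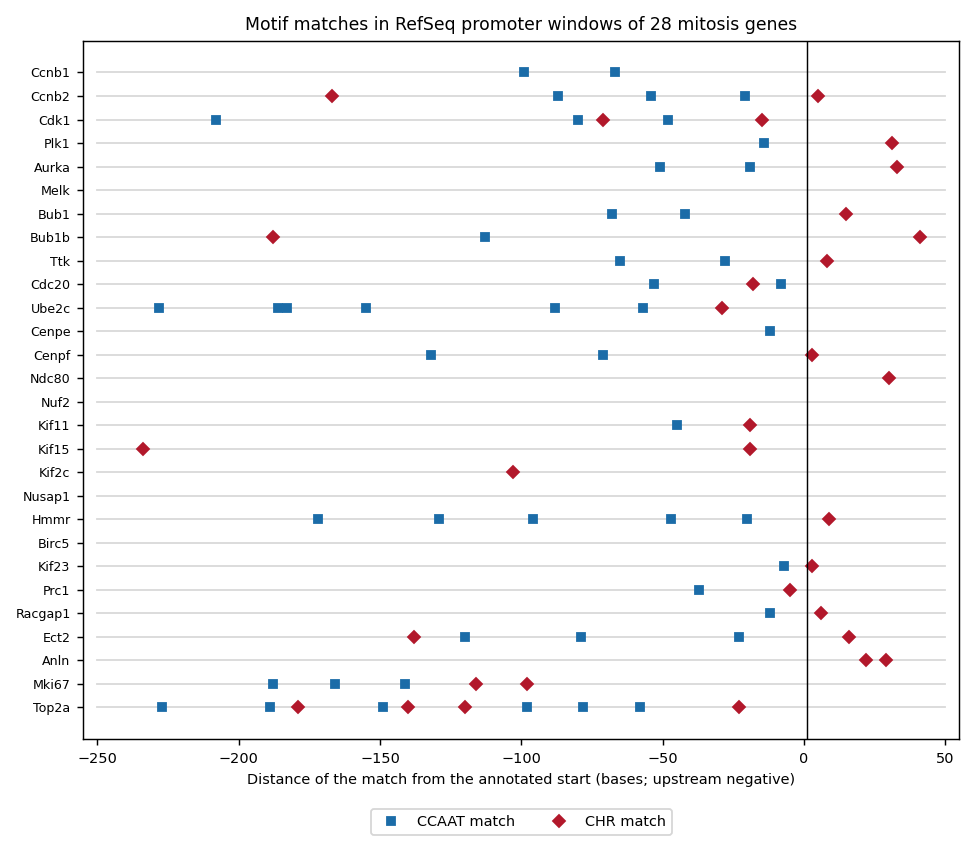
Positions of CHR matches (red diamonds) and CCAAT matches (blue squares) in the promoter windows of the 28 members in the RefSeq table, with the distance from the annotated start in bases on the horizontal axis. The 32 CHR matches lie mostly close to the start, at a median of -16.5, and the 48 CCAAT matches mostly further upstream, at a median of -74.5.

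Library totals ranged from 57.2 to 109.95 M estimated counts with a median of 84.4 M, and the lowest count of any member in any library was 8, for Melk and Kif2c. Insulin transcripts were high in all 45 libraries, with Ins1 at 13463 to 59372 CPM, and the sex-linked genes separated the libraries by the labelled sex without exception. Nnt separated the 16 C57BL/6J libraries from the 29 others, and no gene named beforehand was checked between CAST/EiJ and NZO/HlLtJ. That pair was covered only by the transcripts of another strain given below, which were picked from these same libraries. Acinar transcripts differed between libraries. The summed level of 10 acinar markers reached 561887 CPM in replicate 4 of the CAST/EiJ females on 10% fat, the library with the lowest normalisation factor (0.486). In 5 libraries, transcripts that another strain expresses and the library's own strain lacks were present at 1.37% to 9.48% of that other strain's level. They were CAST/EiJ females on 44% fat replicates 1, 2 and 4, C57BL/6J females on 44% fat replicate 2, and NZO/HlLtJ males on 44% fat replicate 3. No other library exceeded 0.571%. Nothing in the labels ties each library to a mouse of its own, so the p-values here reflect how these libraries vary, which may in part be technical.

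Levels are given as CPM, the share of a library that a gene takes up, scaled with TMM normalisation factors. Per kilobase of exon, the highest mean levels over the 45 libraries were those of Racgap1, a GTPase-activating protein of the central spindle, with 1.74 CPM, the proliferation antigen Mki67 with 1.67, the kinase Pbk with 1.58, the checkpoint target Cdc20 with 1.32 and topoisomerase Top2a with 1.16. The lowest were those of the depolymerising kinesin Kif2c with 0.159 CPM and the spindle kinesin Kif15 with 0.0654. The mean level was highest in NZO/HlLtJ males on 44% fat for 26 members and in NZO/HlLtJ females on 44% fat for Ccnb1, Pbk, Aurka, Cenpf, Nuf2, Hmmr and Kif20a. The checkpoint kinase Ttk was the exception, with its highest mean in CAST/EiJ males on 10% fat. The lowest group mean was that of C57BL/6J males on 10% fat for 22 members and of C57BL/6J females on 10% fat for 7. The ratio of the highest to the lowest group mean ran from 2.64 for the cytokinesis kinesin Kif20a to 11.0 for Kif2c, with 10.7 for the kinase Melk.

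**Figure D2:**
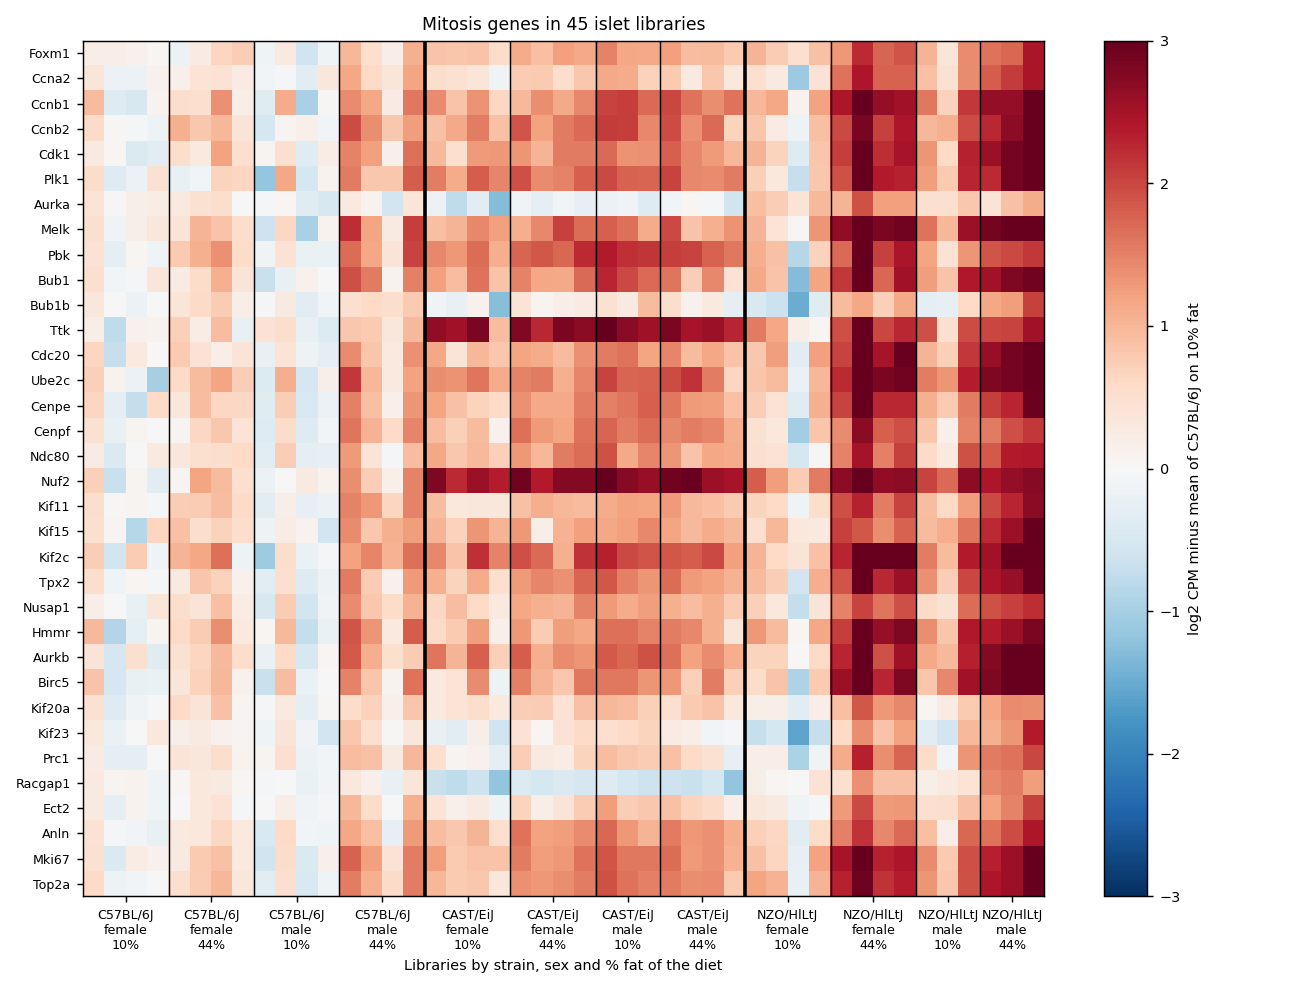
Each row is a member and each column a library, with colour giving the log2 CPM minus the mean of the 8 C57BL/6J libraries on 10% fat, limited to 3 on either side. The NZO/HlLtJ columns on 44% fat hold the highest values in most rows, the CAST/EiJ columns are raised on both diets for most members, above all Ttk and Nuf2, and Aurka and Racgap1 are lowest in CAST/EiJ.

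In several groups the same library was highest or lowest for most members. In NZO/HlLtJ females on 10% fat, replicate 3 had the lowest value of its group for 32 of the 34 members, with a summed level of 44.6 CPM against 74.6 to 85.8 CPM in the others. In NZO/HlLtJ females on 44% fat, replicate 2 was highest for 33 members, with 322.7 CPM against 166.5 to 203.7 CPM. Replicate 3 of the NZO/HlLtJ males was highest for 34 members on 10% fat (149.3 CPM) and for 32 members on 44% fat (304.7 CPM), and these are different libraries that share only a number. In C57BL/6J males on 44% fat, replicate 3 was lowest for 31 members, with 61.6 CPM against 91.6 to 122.5 CPM. In these 5 groups the spread between libraries was shared by most members, so the members are not independent observations of it. Sharing varied in the other groups. In C57BL/6J males on 10% fat, replicate 2 was highest for 30 members. In CAST/EiJ males on 44% fat, replicate 4 was lowest for 27 members. It was weaker in CAST/EiJ females on 44% fat, where the 4 libraries were highest for 11, 2, 5 and 16 members.

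**Figure D3:**
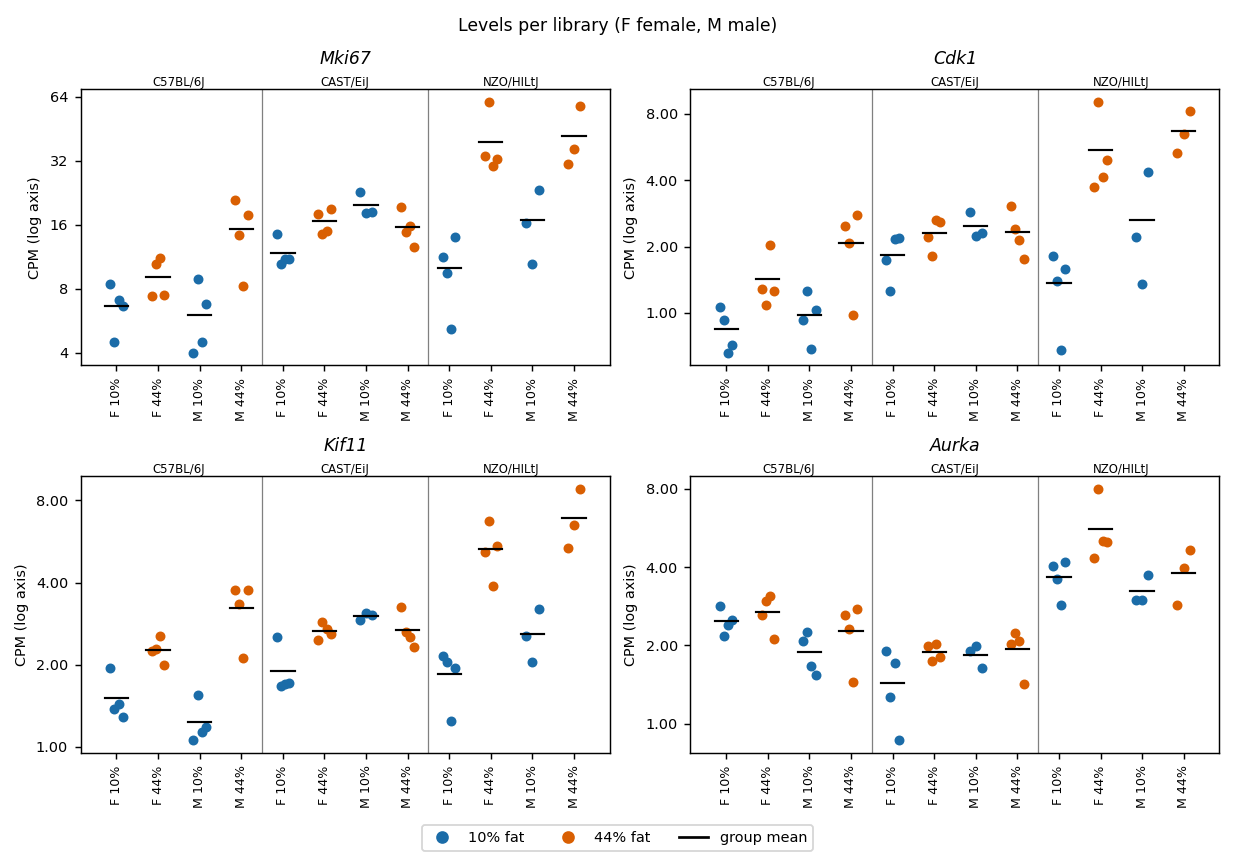
CPM of Mki67, Cdk1, Kif11 and Aurka in each of the 45 libraries on log axes, by strain, sex and diet, with the group mean as a line. For Mki67, Cdk1 and Kif11 the NZO/HlLtJ points on 44% fat (for Mki67, 30.2 to 60.7 CPM) lie above all NZO/HlLtJ points on 10% fat of the same sex, whereas the Aurka points of NZO/HlLtJ males overlap between the diets.

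In NZO/HlLtJ islets, 34 of 34 members rose on 44% fat when the sexes were averaged, by a median of 1.46 on the log2 scale, while the median over all genes was -0.02. The call was an adjusted p under 0.05 in the quasi-likelihood test of edgeR with Benjamini-Hochberg adjustment over all genes, and 18.5% of the 20306 genes were called higher in the same comparison. In females 34 of 34 members rose (background 9.37%, median 1.80) and in males 30 of 34 rose (background 17%, median 1.27). Aurka, Ttk, Nuf2 and Hmmr were not called in males, where their differences were 0.24 (adjusted p = 0.483), 0.61 (adjusted p = 0.232), 0.42 (adjusted p = 0.314) and 0.93 (adjusted p = 0.0914). For 34 of 34 members every female library on 44% fat lay above every female library on 10% fat, as did 8.79% of all genes. In males this held for 28 members, against 20% of all genes, and Plk1, Aurka, Ndc80, Nuf2, Hmmr and Anln overlapped.

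Foxm1, the transcription factor that drives mitotic genes, was at 3.59, 3.0, 2.54 and 3.27 CPM in NZO/HlLtJ females on 10% fat and at 4.38, 8.47, 5.97 and 6.61 CPM on 44% fat. In NZO/HlLtJ males it was at 3.60, 2.29 and 4.79 CPM on 10% fat and at 5.48, 5.93 and 9.66 CPM on 44% fat. In both sexes the lowest library on 44% fat lay above the highest on 10% fat, and the rise was 1.01 (SE 0.165, adjusted p = 1.2e-05). Foxm1 rose by nearly the same amount in females (1.04) and males (0.98), and 30 of the other 33 members had a larger difference.

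Cdk1, the kinase that triggers entry into mitosis, was at 1.81, 1.40, 0.678 and 1.58 CPM in NZO/HlLtJ females on 10% fat and at 3.74, 9.11, 4.13 and 4.93 CPM on 44% fat. In males it was at 2.22, 1.35 and 4.36 CPM on 10% fat and at 5.30, 6.5 and 8.22 CPM on 44% fat. The diets did not overlap in either sex, although the highest male library on 10% fat, replicate 3, came close to the lowest on 44% fat, and the rise was 1.67 (SE 0.24, adjusted p = 1.75e-06). Ccnb1, the B-type cyclin that activates Cdk1, was at 1.2, 1.35, 0.648 and 1.39 CPM in females on 10% fat and at 3.24, 8.19, 3.77 and 3.42 CPM on 44% fat. In males Ccnb1 was at 1.80, 0.972 and 2.61 CPM on 10% fat and at 3.72, 3.72 and 6.29 CPM on 44% fat. Its level in female replicate 2 on 44% fat was more than double that of the other 3 libraries of the group, the diets did not overlap, and the rise was 1.69 (SE 0.272, adjusted p = 9.3e-06). Ccnb2, the second B-type cyclin, was at 0.879, 0.585, 0.442 and 0.910 CPM in females on 10% fat and at 1.93, 3.55, 2.02 and 2.63 CPM on 44% fat, and in males at 0.983, 1.03 and 1.90 and at 2.34, 3.15 and 4.80 CPM. It rose by 1.62 (SE 0.218, adjusted p = 6.51e-07) without overlap, and Ccna2, the cyclin of S phase and G2, rose by 1.48 (SE 0.186, adjusted p = 2.09e-07).

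Among the mitotic kinases, Plk1, which acts in centrosome maturation, mitotic entry and exit, was at 0.891, 0.678, 0.334 and 0.955 CPM in NZO/HlLtJ females on 10% fat and at 2.03, 5.70, 2.85 and 2.69 CPM on 44% fat. In males Plk1 was at 1.29, 0.939 and 2.64 CPM on 10% fat and at 2.58, 3.98 and 6.03 CPM on 44% fat. Female diets were apart, while in males replicate 3 on 10% fat lay just above the lowest library on 44% fat, and the rise was 1.79 (SE 0.28, adjusted p = 5.86e-06). Aurka, the centrosomal Aurora kinase, showed the smallest difference of the 34 members: it was at 4.04, 3.59, 2.86 and 4.19 CPM in females on 10% fat and at 4.36, 8.02, 5.03 and 5.02 CPM on 44% fat. In males Aurka was at 2.98, 3.0 and 3.73 CPM on 10% fat and at 2.85, 3.96 and 4.64 CPM on 44% fat, with the lowest library on 44% fat below all 3 on 10% fat. Its rise was 0.42 (SE 0.157, adjusted p = 0.0321) over both sexes, and it was called in females (0.61, adjusted p = 0.0344) and not in males. The Aurka call over both sexes was lost in 9 of 23 alternatives, among them library totals and the fit without the 5 libraries with transcripts of another strain. Pbk, a kinase of mitotic cells, was at 2.14, 1.83, 0.550 and 1.61 CPM in females on 10% fat and at 3.24, 8.71, 4.15 and 5.5 CPM on 44% fat, and in males at 2.26, 1.35 and 2.49 and at 3.69, 3.96 and 4.32 CPM. It rose by 1.40 (SE 0.228, adjusted p = 1.1e-05) without overlap, with estimates of 1.82 in females and 0.97 in males that were not called as different. Melk, a kinase induced in proliferating cells, rose by 1.80 (SE 0.254, adjusted p = 1.35e-06).

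In the spindle checkpoint, Bub1b (BubR1), an inhibitor of the anaphase-promoting complex, was at 0.904, 0.789, 0.442 and 0.955 CPM in NZO/HlLtJ females on 10% fat and at 2.37, 2.77, 2.02 and 2.71 CPM on 44% fat. In males Bub1b was at 1.00, 1.04 and 1.87 CPM on 10% fat and at 2.76, 2.92 and 5.13 CPM on 44% fat. The diets were apart in both sexes, and the rise was 1.57 (SE 0.188, adjusted p = 1.19e-07). The checkpoint kinases Bub1 and Ttk (Mps1) rose by 1.43 (SE 0.273, adjusted p = 9.49e-05) and 1.06 (SE 0.255, adjusted p = 0.00125). The activator of the anaphase-promoting complex, Cdc20, and its ubiquitin-conjugating enzyme, Ube2c, rose by 1.78 (SE 0.238, adjusted p = 6.18e-07) and 1.85 (SE 0.277, adjusted p = 3.11e-06), so genes that restrain anaphase and genes that trigger it rose together.

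At the kinetochore, the motor Cenpe, which carries chromosomes to the metaphase plate, was at 1.77, 1.44, 0.825 and 2.23 CPM in NZO/HlLtJ females on 10% fat and at 4.30, 8.72, 5.11 and 5.10 CPM on 44% fat. In males Cenpe was at 2.23, 1.81 and 3.10 CPM on 10% fat and at 4.43, 5.19 and 8.15 CPM on 44% fat. No library on 10% fat reached the lowest on 44% fat within a sex, and the rise was 1.60 (SE 0.227, adjusted p = 1.43e-06). Cenpf, a large kinetochore-associated protein, rose by 1.36 (SE 0.221, adjusted p = 1.1e-05). Ndc80 and Nuf2, partners in the complex that grips microtubules, rose by 1.46 (SE 0.226, adjusted p = 5.31e-06) and 0.97 (SE 0.204, adjusted p = 0.000272), and Nuf2 was called in females (1.53) and not in males.

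Among the spindle proteins, the kinesin Kif11 (Eg5), which pushes the poles apart, was at 2.15, 2.04, 1.25 and 1.94 CPM in NZO/HlLtJ females on 10% fat and at 5.16, 6.71, 3.90 and 5.46 CPM on 44% fat. In males Kif11 was at 2.54, 2.04 and 3.20 CPM on 10% fat and at 5.34, 6.51 and 8.84 CPM on 44% fat. The groups were well apart, with a rise of 1.52 in females and 1.41 in males, and a mean of 1.47 (SE 0.15, adjusted p = 1.52e-08), the smallest adjusted p of the 34. Kif2c (MCAK), which corrects faulty attachments, had the largest difference of the 34: it was at 0.396, 0.297, 0.255 and 0.359 CPM in females on 10% fat and at 0.953, 2.29, 1.64 and 1.57 CPM on 44% fat. In males Kif2c was at 0.568, 0.375 and 1.02 CPM on 10% fat and at 1.13, 2.00 and 2.89 CPM on 44% fat, and it rose by 1.96 (SE 0.261, adjusted p = 5.98e-07). Kif15, which can partly stand in for Kif11, rose by 1.30 (SE 0.185, adjusted p = 1.47e-06) and Tpx2, the activator of Aurka on the spindle, by 1.58 (SE 0.228, adjusted p = 1.92e-06). The microtubule-bundling protein Nusap1 rose by 1.29 (SE 0.196, adjusted p = 4.2e-06) and the spindle-associated hyaluronan receptor Hmmr by 1.46 (SE 0.284, adjusted p = 0.000114).

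In the chromosomal passenger complex, the kinase Aurkb was at 0.532, 0.529, 0.334 and 0.505 CPM in NZO/HlLtJ females on 10% fat and at 1.63, 2.93, 1.26 and 1.94 CPM on 44% fat. In males Aurkb was at 0.732, 0.651 and 1.67 CPM on 10% fat and at 2.26, 3.10 and 4.36 CPM on 44% fat. It rose by 1.85 (SE 0.231, adjusted p = 2.02e-07) without overlap, more than 4 times as much on the log2 scale as its relative Aurka. Birc5 (survivin), the subunit that brings Aurkb to centromeres, was at 0.520, 0.641, 0.187 and 0.606 CPM in females on 10% fat and at 2.08, 3.44, 1.73 and 2.44 CPM on 44% fat. In males Birc5 was at 0.633, 0.961 and 2.02 CPM on 10% fat and at 2.48, 3.16 and 4.87 CPM on 44% fat, and it rose by 1.92 (SE 0.284, adjusted p = 2.57e-06). Female replicate 3 on 10% fat was the lowest library for both genes.

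The other members not called in NZO/HlLtJ males follow. Ttk was at 0.891, 0.678, 0.344 and 0.314 CPM in females on 10% fat and at 1.16, 2.53, 1.22 and 1.43 CPM on 44% fat, and in males at 1.15, 0.420 and 1.16 and at 1.22, 1.22 and 1.72 CPM. Nuf2 was at 1.80, 1.23, 0.874 and 1.5 CPM in females on 10% fat and at 3.28, 5.75, 3.25 and 3.30 CPM on 44% fat, and in males at 2.10, 1.66 and 3.28 and at 2.75, 3.22 and 3.41 CPM. Hmmr was at 1.88, 1.48, 0.796 and 1.70 CPM in females on 10% fat and at 3.19, 10.1, 4.67 and 5.34 CPM on 44% fat, and in males at 2.00, 1.36 and 4.0 and at 3.99, 4.56 and 5.38 CPM. Male Nuf2 and Hmmr values overlapped between the diets, with male replicate 3 on 10% fat inside the range on 44% fat, whereas male Ttk values were apart.

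At the central spindle and in cytokinesis, the kinesin Kif23 rose by 1.69 (SE 0.21, adjusted p = 1.8e-07) and its partner Racgap1 by 0.94 (SE 0.109, adjusted p = 7.68e-08). These form the centralspindlin complex. Racgap1 was at 12.5, 11.4, 10.9 and 14.7 CPM in females on 10% fat and at 15.5, 28.5, 20.2 and 20.3 CPM on 44% fat, and in males at 12.4, 13.5 and 14.5 and at 29.6, 31.8 and 26.2 CPM. Racgap1 and Kif15 were the only members with a larger estimate in males (1.12 for Racgap1) than in females (0.77). The exchange factor Ect2, which Racgap1 recruits, rose by 1.17 (SE 0.161, adjusted p = 9.02e-07). The bundling protein Prc1 rose by 1.43 (SE 0.198, adjusted p = 1.03e-06), the kinesin Kif20a by 1.13 (SE 0.149, adjusted p = 4.76e-07) and the actin-binding protein Anln by 1.13 (SE 0.206, adjusted p = 4.8e-05).

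Of the chromosome proteins, Mki67, which coats mitotic chromosomes and is the usual marker of cycling cells, was at 11.3, 9.5, 5.19 and 14 CPM in NZO/HlLtJ females on 10% fat and at 33.7, 60.7, 30.2 and 32.7 CPM on 44% fat. In males Mki67 was at 16.4, 10.5 and 23.4 CPM on 10% fat and at 30.8, 36.5 and 57.7 CPM on 44% fat. Within each sex the diets were apart, female replicate 2 on 44% fat stood far above its group, and the rise was 1.64 (SE 0.222, adjusted p = 9.48e-07). Top2a, the topoisomerase that untangles sister chromatids, was at 9.06, 8.14, 3.41 and 8.04 CPM in females on 10% fat and at 19.8, 30.3, 17.9 and 20.3 CPM on 44% fat. In males Top2a was at 9.98, 6.92 and 15 CPM on 10% fat and at 21.4, 23.5 and 34 CPM on 44% fat, and it rose by 1.46 (SE 0.198, adjusted p = 8.55e-07).

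**Figure D4:**
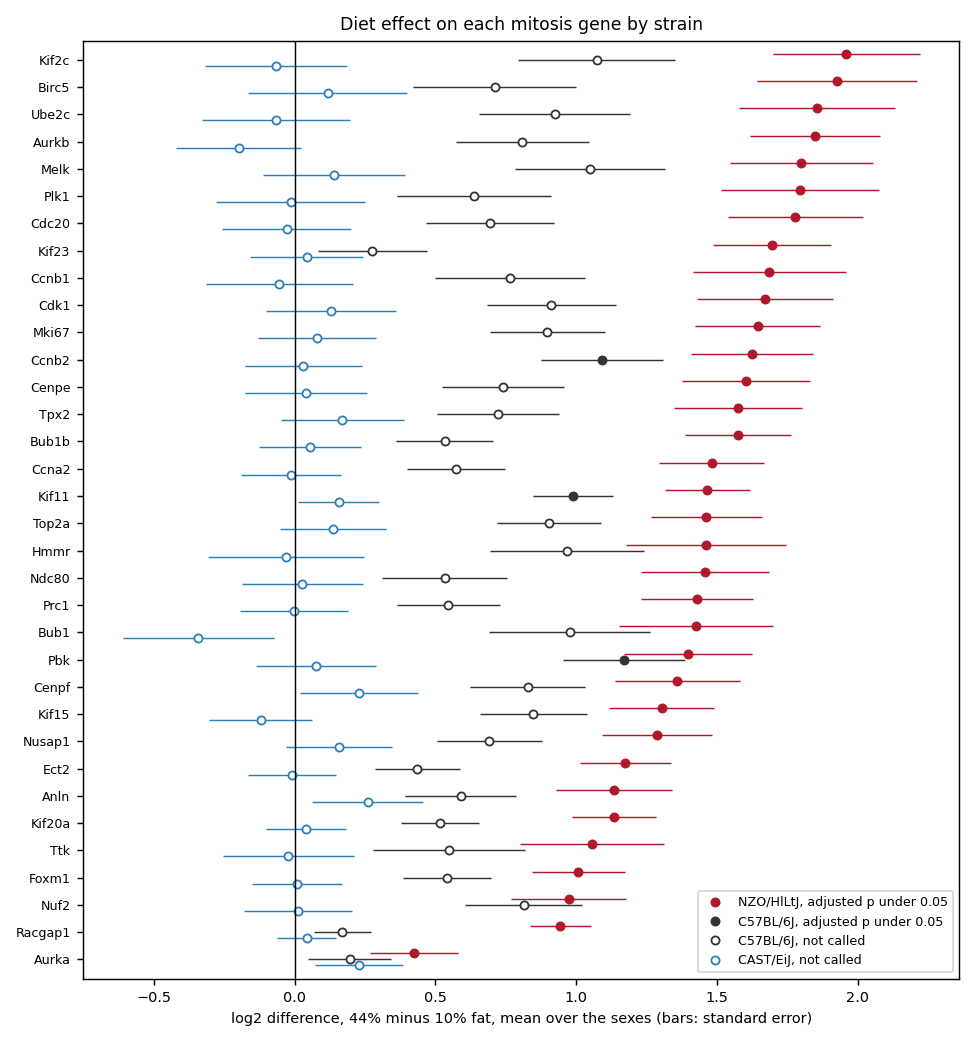
The log2 difference between 44% and 10% fat for each member in NZO/HlLtJ (red), C57BL/6J (black) and CAST/EiJ (blue), as the mean over the sexes with its standard error, ordered by the NZO/HlLtJ value; filled points had an adjusted p under 0.05. The red points run from 0.42 for Aurka to 1.96 for Kif2c and are all filled, 3 black points are filled (Kif11, Pbk and Ccnb2), and the blue points lie around 0.

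The number of members called in NZO/HlLtJ males rested on single libraries more than in females. Without replicate 3 of the males on 44% fat, 1 of the libraries with transcripts of another strain, 17 members were called in males, and without replicate 2 of the males on 10% fat 18 were. Without all 5 libraries with transcripts of another strain, 13 were called in males, 33 in females and 33 as a mean over the sexes, with a median difference of 1.00 in males. The shares of all genes called in these fits are not given. Whether calls fell for the members in particular was therefore not settled. The code of each sample starts with 76, 80 or 89, here called its number series, whose meaning is not stated, and within a sex of NZO/HlLtJ only series 76 held both diets. Within it, 34 members were higher on 44% fat in females (2 libraries against 2, median 1.60) and 33 in males (1 library against 1, median 1.07).

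Markers of other cell types moved with the diet in NZO/HlLtJ. Of all genes, 18.5% were called higher and 17.3% lower when the sexes were averaged. These shares were 9.37% and 7.83% in females, and 17% and 15.1% in males. All 9 macrophage markers rose when the sexes were averaged, and their summed level was 58.7 to 65.2 CPM in females on 10% fat and 156.97 to 218.6 CPM on 44% fat. In males the macrophage sum was 82.5 to 259.5 CPM on 10% fat and 481.8 to 868.6 CPM on 44% fat. Of 10 lymphocyte markers 9 rose, and Cd3d and Nkg7 were at 0 counts in at least 1 NZO/HlLtJ library on 10% fat. Lymphocyte sums were 5.45 to 7.6 and 8.59 to 41.7 CPM on 10% and 44% fat in females and 11.6 to 20.6 and 63.6 to 165.6 CPM in males. The highest sum rested mainly on Ptprc, which reached 102.4 CPM, while the next marker, Cd79a, reached 14.1 CPM. Ptprc is not particular to lymphocytes among white blood cells, so this sum does not measure lymphocytes alone. All 8 fibroblast and stellate cell markers rose, with sums of 333 to 490 and 596 to 1112 CPM in females and of 314 to 1309 and 1703 to 3571 CPM in males. Of 8 duct markers 5 rose. Endothelial markers rose in 4 of 8 cases with a median of 0.21. None of 10 acinar markers was called by edgeR, with a median of 1.05 and male sums of 35069 to 48926 CPM on 10% fat and 62910 to 132551 CPM on 44% fat. In males 3 of 5 Schwann cell markers rose and 1 fell, with sums of 21.6 to 32.1 and 34.1 to 45.8 CPM. In females 3 of 5 alpha cell markers fell and 1 rose, with sums of 17767 to 21712 and 14040 to 15668 CPM. Of 4 delta cell markers 3 fell in females, with sums of 2325 to 2654 and 1237 to 1694 CPM. Neither sum fell in this way in males. There the alpha cell sum was 6984 to 14053 CPM on 10% fat and 11872 to 18028 CPM on 44% fat. The male delta cell sum was 1097 to 1511 and 1188 to 1528 CPM. Of 10 beta cell markers 7 fell when the sexes were averaged. In males the beta cell sum was 139332 to 187838 CPM on 10% fat and 55297 to 113223 CPM on 44% fat. In females it was 106132 to 139220 and 130940 to 184730 CPM, so this sum went opposite ways in the sexes, with overlap between the diets in females. The sum rests mainly on Ins1, Ins2 and Iapp, as no other beta cell marker exceeded the 3645 CPM of G6pc2. Which cells carried the mitosis transcripts, and the part of these other cells in the rise, was not tested.

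Genes of the same processes outside the 34 were followed as lists chosen with earlier results of these data known. Of 55 other mitotic genes, such as condensins, further kinesins and inner kinetochore proteins, 46 rose in NZO/HlLtJ when the sexes were averaged and 1 fell, with a median of 0.87. Of all genes, 18.5% rose and 17.3% fell in that comparison. The smallest adjusted p were those of the condensin subunit Ncaph (1.83, SE 0.235, adjusted p = 3.27e-07), the checkpoint protein Mad2l1 (0.72, SE 0.0936, adjusted p = 3.8e-07) and the spindle protein Dlgap5 (1.86, SE 0.244, adjusted p = 4.76e-07). The 1 that fell was Spc25 (-0.70, SE 0.167, adjusted p = 0.00108), a partner of Ndc80 and Nuf2 in the same complex. Of 20 DNA replication genes 19 rose, with a median of 0.61, led by the helicase subunits Mcm5 (1.18, SE 0.142, adjusted p = 1.2e-07), Mcm6 (0.80, SE 0.101, adjusted p = 2.47e-07) and Mcm7 (0.62, SE 0.0828, adjusted p = 5.73e-07).

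Of the 12 genes of the MuvB complex, B-Myb, the pocket proteins and their E2F partners, 1 rose and 4 fell, with a median of -0.05, where 18.5% of all genes rose and 17.3% fell. The 1 that rose was Mybl2 (B-Myb), the activating partner of MuvB, by 0.57 (SE 0.171, adjusted p = 0.00841). Those that fell were the MuvB subunits Lin52 (-0.47, SE 0.0779, adjusted p = 1.54e-05) and Lin54 (-0.15, SE 0.0588, adjusted p = 0.0488), the latter being the subunit that binds the CHR, the retinoblastoma gene Rb1 (-0.34, SE 0.07, adjusted p = 0.000243) and the repressive E2F member E2f5 (-0.26, SE 0.0758, adjusted p = 0.00642). In females Mybl2 (0.80) and Tfdp1 (0.28), the binding partner of E2F proteins, rose, and Rb1 (-0.30) and Lin52 (-0.29) fell. In males Lin52 (-0.64), E2f5 (-0.39), Rb1 (-0.37) and Lin54 (-0.24) fell. Of all genes, 9.37% rose and 7.83% fell in females, and 17% rose and 15.1% fell in males.

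In C57BL/6J islets all 34 members had a positive difference between 44% and 10% fat as a mean over the sexes, with a median of 0.73, and 3 were called: Kif11, Pbk and Ccnb2. Only 5 genes, 0.0246% of all tested, were called higher in this comparison, and 31 members had an unadjusted p under 0.05. In females no member was called by edgeR or by DESeq2, with 8 members at an unadjusted p under 0.05 and a median of 0.46, and no gene at all was called higher (0%). In males 3 were called (Kif11, Ccnb2 and Top2a, background 0.0443%), 30 had an unadjusted p under 0.05 and the median was 1.02. Every library on 44% fat lay above every library on 10% fat for 4 members in females (Cdk1, Pbk, Ndc80 and Kif11), against 1.09% of all genes. In males this held for 8 members (Ccna2, Ccnb2, Bub1b, Cenpf, Kif11, Kif15, Kif2c and Top2a), against 1.61%.

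Kif11 was at 1.95, 1.37, 1.43 and 1.28 CPM in C57BL/6J females on 10% fat and at 2.25, 2.27, 2.56 and 1.99 CPM on 44% fat. In males Kif11 was at 1.06, 1.54, 1.13 and 1.19 CPM on 10% fat and at 3.76, 3.33, 2.12 and 3.75 CPM on 44% fat. It was the only member without overlap in both sexes, and it rose by 0.99 (SE 0.141, adjusted p = 0.000482) as a mean and by 1.39 (SE 0.201, adjusted p = 0.000598) in males. Pbk was at 1.34, 0.826, 1.04 and 0.909 CPM in females on 10% fat and at 1.72, 2.08, 2.59 and 1.47 CPM on 44% fat, and in males at 0.932, 1.35, 0.874 and 0.876 and at 3.22, 2.23, 1.32 and 4.06 CPM. Female libraries were apart, male replicate 3 on 44% fat overlapped with the males on 10% fat, and Pbk rose by 1.17 (SE 0.217, adjusted p = 0.0192) as a mean. Ccnb2 was at 0.727, 0.502, 0.469 and 0.438 CPM in females on 10% fat and at 1.03, 0.864, 0.973 and 0.636 CPM on 44% fat, and in males at 0.338, 0.521, 0.548 and 0.461 and at 1.91, 1.28, 0.854 and 1.17 CPM. Here the males were apart and the females overlapped, and Ccnb2 rose by 1.09 (SE 0.215, adjusted p = 0.0427) as a mean and by 1.48 (SE 0.304, adjusted p = 0.0494) in males. Top2a was at 6.06, 3.58, 3.77 and 3.98 CPM in females on 10% fat and at 5.56, 6.69, 7.87 and 5.06 CPM on 44% fat, and in males at 3.21, 5.64, 2.90 and 3.64 and at 11.6, 8.31, 5.87 and 11.6 CPM. It rose in males by 1.27 (SE 0.261, adjusted p = 0.0494) without overlap, and its mean difference of 0.90 (SE 0.183, adjusted p = 0.051) just missed the threshold.

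The members not called in C57BL/6J had estimates in the same direction, mostly with overlap between the diets. Foxm1 was at 2.05, 2.05, 1.94 and 1.85 CPM in females on 10% fat and at 1.58, 2.10, 2.77 and 2.97 CPM on 44% fat, and in males at 1.63, 2.17, 1.18 and 1.62 and at 3.53, 2.55, 2.04 and 3.71 CPM. Cdk1 was at 1.06, 0.929, 0.659 and 0.714 CPM in females on 10% fat and at 1.29, 1.08, 2.04 and 1.26 CPM on 44% fat, and in males at 0.932, 1.25, 0.685 and 1.03 and at 2.48, 2.09, 0.981 and 2.77 CPM. Ccnb1 was at 1.16, 0.457, 0.431 and 0.649 CPM in females on 10% fat and at 0.869, 0.851, 1.57 and 0.695 CPM on 44% fat, and in males at 0.466, 1.31, 0.308 and 0.612 and at 1.62, 1.34, 0.717 and 1.81 CPM. Their mean differences were 0.54 (adjusted p = 0.375), 0.91 (adjusted p = 0.163) and 0.76 (adjusted p = 0.788), and only the female Cdk1 values were apart. Plk1 was at 0.794, 0.413, 0.481 and 0.747 CPM in females on 10% fat and at 0.470, 0.511, 0.867 and 0.849 CPM on 44% fat, and in males at 0.245, 1.21, 0.377 and 0.584 and at 1.59, 0.955, 0.960 and 1.93 CPM. Aurka was at 2.84, 2.18, 2.41 and 2.50 CPM in females on 10% fat and at 2.61, 2.96, 3.10 and 2.12 CPM on 44% fat, and in males at 2.08, 2.25, 1.66 and 1.54 and at 2.61, 2.32, 1.44 and 2.76 CPM. Both kinases overlapped between the diets in both sexes, with differences of 0.64 (adjusted p = 1) and 0.20 (adjusted p = 1).

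For the checkpoint and kinetochore, Bub1b was at 1.55, 1.24, 1.09 and 1.23 CPM in C57BL/6J females on 10% fat and at 1.59, 1.85, 2.10 and 1.40 CPM on 44% fat, and in males at 1.21, 1.48, 0.994 and 1.17 and at 1.75, 1.87, 1.78 and 2.13 CPM. Cenpe was at 1.67, 0.870, 0.646 and 1.61 CPM in females on 10% fat and at 1.33, 2.02, 1.63 and 1.64 CPM on 44% fat, and in males at 0.827, 1.76, 0.771 and 0.932 and at 3.0, 1.97, 1.18 and 2.66 CPM. Male Bub1b values were apart, Cenpe overlapped in both sexes, and the mean differences were 0.53 (adjusted p = 0.627) and 0.74 (adjusted p = 0.375). Kif2c was at 0.324, 0.133, 0.329 and 0.179 CPM in females on 10% fat and at 0.399, 0.438, 0.613 and 0.177 CPM on 44% fat, and in males at 0.0932, 0.280, 0.171 and 0.188 and at 0.452, 0.538, 0.401 and 0.616 CPM. Its difference of 1.07 (adjusted p = 0.208) was the third largest in this strain, the male libraries were apart between the diets, and the counts behind it were among the lowest of the 34. Aurkb was at 0.436, 0.236, 0.469 and 0.260 CPM in females on 10% fat and at 0.461, 0.523, 0.656 and 0.483 CPM on 44% fat, and in males at 0.291, 0.502, 0.240 and 0.348 and at 1.2, 0.714, 0.464 and 0.568 CPM. Birc5 was at 0.637, 0.251, 0.304 and 0.308 CPM in females on 10% fat and at 0.452, 0.572, 0.709 and 0.389 CPM on 44% fat, and in males at 0.221, 0.675, 0.308 and 0.348 and at 0.991, 0.626, 0.380 and 1.09 CPM. Both passenger genes overlapped, with differences of 0.81 (adjusted p = 0.375) and 0.71 (adjusted p = 1). Mki67 was at 8.42, 4.5, 7.09 and 6.67 CPM in females on 10% fat and at 7.38, 10.5, 11.1 and 7.52 CPM on 44% fat, and in males at 4.01, 8.90, 4.49 and 6.76 and at 21.0, 14.4, 8.29 and 17.8 CPM. Male replicates 1, 2 and 4 on 44% fat exceeded all males on 10% fat while replicate 3 did not, and the mean difference was 0.90 (adjusted p = 0.117).

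The C57BL/6J calls depended on single libraries. Without replicate 3 of the males on 44% fat 8 members were called as a mean over the sexes and 8 in males, and without replicate 2 of the males on 10% fat 6 and 7 were. Kif11 alone was called (1 member) as a mean without any one of 7 other libraries: female replicates 2 and 4 on 10% fat, female replicate 3 on 44% fat, male replicates 3 and 4 on 10% fat, and male replicates 1 and 4 on 44% fat. In males it was alone without male replicate 1, 3 or 4 on 10% fat or replicate 1, 2 or 4 on 44% fat. Over 25 alternatives for the mean, the call of Ccnb2 was lost in 16, that of Pbk in 10 and that of Kif11 in 0. DESeq2 called 11 members as a mean and 9 in males. Without the 5 libraries with transcripts of another strain, 1 member was called as a mean and 1 in males. Within the number series, 34, 30 and 34 members were higher on 44% fat in males of series 76, 80 and 89, and 14, 34 and 28 in females, each with 1 or 2 libraries per diet. The summed macrophage markers were 68.8 to 106.5 CPM in males on 10% fat and 79.7 to 111.7 CPM on 44% fat, and 0 of 9 were called. The lymphocyte sum was 9.29 to 11.7 CPM and 11.1 to 48.5 CPM in these males, with 0 of 10 called.

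Of the lists beside the 34, 1 of 55 other mitotic genes rose in C57BL/6J as a mean over the sexes, the kinetochore subunit Dsn1 (0.84, SE 0.157, adjusted p = 0.0192), with a median of 0.50 over the list. The next smallest adjusted p were those of the kinesin Kifc1 (0.83, adjusted p = 0.0935) and of Ckap2l (1.17, adjusted p = 0.0935), a spindle protein. None of the 20 DNA replication genes was called in edgeR (3 at an unadjusted p under 0.05, median 0.10), the smallest adjusted p being that of Mcm5 (0.37, adjusted p = 0.872) and all others rounding to 1. None of the 12 MuvB genes was called in edgeR (0 at an unadjusted p under 0.05), and all their adjusted p rounded to 1. Kif11, Pbk, Ccnb2 and Dsn1 thus made up 4 of the 5 genes called higher in C57BL/6J, the melanocortin receptor Mc5r being the other.

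In CAST/EiJ islets no member was called for diet as a mean over the sexes by edgeR or by DESeq2, none had an unadjusted p under 0.05, and the median was 0.04, with 21 differences above and 13 below 0 (background 0.0443%). The estimates went opposite ways in the sexes. In females 33 of 34 were positive with a median of 0.37, 9 had an unadjusted p under 0.05 and none was called (background 0.222%). In males 33 of 34 were negative with a median of -0.31, 1 had an unadjusted p under 0.05 and none was called (background 0.00492%). Every female library on 44% fat lay above every female library on 10% fat for 10 members (Foxm1, Ccna2, Pbk, Cenpf, Tpx2, Nusap1, Racgap1, Anln, Mki67 and Top2a), against 1.79% of all genes. In males 6 members (Pbk, Bub1, Cenpf, Nusap1, Aurkb and Kif23) had every library on 44% fat below every library on 10% fat, against 1.95%, and 0 had the reverse, against 1.31%. Of the 5 libraries with transcripts of another strain, 3 are CAST/EiJ females on 44% fat, and without them only replicate 3 is left. The median difference in CAST/EiJ females was then 0.37, and calls for these females are not given for that fit.

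Foxm1 was at 3.24, 3.17, 3.23 and 2.62 CPM in CAST/EiJ females on 10% fat and at 3.86, 3.31, 4.21 and 3.90 CPM on 44% fat, and in males at 5.04, 4.0 and 3.90 and at 4.17, 3.36, 3.46 and 3.05 CPM. Pbk was at 2.70, 2.45, 3.22 and 2.13 CPM in females on 10% fat and at 3.37, 3.67, 3.31 and 4.75 CPM on 44% fat, and in males at 5.18, 4.58 and 4.46 and at 4.19, 4.10, 3.40 and 3.0 CPM. Both genes were apart in females, upward, and Pbk was also apart in males, downward. Mki67 was at 14.5, 10.5, 11.0 and 11.1 CPM in females on 10% fat and at 17.9, 14.5, 15 and 19.0 CPM on 44% fat, and in males at 22.8, 18.3 and 18.4 and at 19.5, 14.8, 15.8 and 12.6 CPM. Top2a was at 7.89, 6.83, 6.95 and 5.07 CPM in females on 10% fat and at 10.3, 9.73, 10.4 and 11.4 CPM on 44% fat, and in males at 15, 12.4 and 11.4 and at 11.8, 10.5, 10.7 and 6.88 CPM. Female values of these 2 chromosome genes were apart between the diets and male values overlapped. Aurkb was at 1.02, 0.674, 1.16 and 0.549 CPM in females on 10% fat and at 1.17, 0.713, 0.898 and 0.838 CPM on 44% fat, and in males at 1.2, 1.11 and 1.25 and at 1.05, 0.767, 0.885 and 0.713 CPM. It overlapped in females, and all 4 males on 44% fat lay below the 3 on 10% fat.

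The remaining members with values by library overlapped between the diets in both sexes of CAST/EiJ. Cdk1 was at 1.74, 1.26, 2.16 and 2.18 CPM in females on 10% fat and at 2.21, 1.81, 2.63 and 2.59 CPM on 44% fat, and in males at 2.88, 2.24 and 2.29 and at 3.06, 2.39, 2.14 and 1.76 CPM. Ccnb1 was at 1.60, 1.08, 1.53 and 0.930 CPM in females on 10% fat and at 1.18, 1.58, 1.33 and 1.65 CPM on 44% fat, and in males at 2.44, 2.54 and 1.96 and at 2.42, 1.87, 1.58 and 1.87 CPM. Ccnb2 was at 0.909, 1.08, 1.42 and 0.908 CPM in females on 10% fat and at 1.82, 1.13, 1.44 and 1.59 CPM on 44% fat, and in males at 2.10, 2.07 and 1.33 and at 1.90, 1.27, 1.58 and 0.774 CPM. The highest Ccnb1 and Ccnb2 values of the strain were thus found in males on 10% fat. Plk1 was at 1.59, 1.17, 1.91 and 1.5 CPM in females on 10% fat and at 2.08, 1.46, 1.53 and 1.89 CPM on 44% fat, and in males at 2.15, 1.87 and 1.81 and at 2.22, 1.49, 1.45 and 1.59 CPM. Aurka was at 1.90, 1.27, 1.71 and 0.866 CPM in females on 10% fat and at 1.98, 1.75, 2.03 and 1.80 CPM on 44% fat, and in males at 1.91, 1.99 and 1.63 and at 2.03, 2.24, 2.08 and 1.43 CPM. Bub1b was at 1.14, 1.06, 1.34 and 0.507 CPM in females on 10% fat and at 1.65, 1.30, 1.42 and 1.46 CPM on 44% fat, and in males at 1.70, 1.49 and 2.40 and at 1.77, 1.35, 1.52 and 1.00 CPM. For Aurka and Bub1b, female replicate 4 on 10% fat, the library with the most acinar transcripts, was the lowest of all CAST/EiJ libraries.

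Cenpe was at 2.41, 1.95, 1.69 and 1.61 CPM in CAST/EiJ females on 10% fat and at 2.76, 2.32, 2.32 and 3.08 CPM on 44% fat, and in males at 3.01, 3.23 and 3.67 and at 3.18, 2.55, 2.54 and 1.96 CPM. Kif11 was at 2.54, 1.67, 1.69 and 1.71 CPM in females on 10% fat and at 2.46, 2.86, 2.69 and 2.60 CPM on 44% fat, and in males at 2.92, 3.09 and 3.05 and at 3.25, 2.64, 2.53 and 2.32 CPM. For Kif11, female replicate 1 on 10% fat stood above the other 3 of its group and inside the range on 44% fat. Kif2c was at 0.529, 0.356, 0.896 and 0.549 CPM in females on 10% fat and at 0.741, 0.633, 0.410 and 0.877 CPM on 44% fat, and in males at 0.986, 0.769 and 0.719 and at 0.709, 0.691, 0.772 and 0.455 CPM. Birc5 was at 0.434, 0.470, 0.950 and 0.317 CPM in females on 10% fat and at 1.00, 0.713, 0.615 and 1.05 CPM on 44% fat, and in males at 1.06, 1.05 and 0.878 and at 0.863, 0.583, 1.03 and 0.577 CPM. Neither Kif2c nor Birc5 was called, with mean differences of -0.07 (adjusted p = 0.984) and 0.12 (adjusted p = 0.965). Within the number series, 32, 32 and 34 members were higher on 44% fat in females of series 76, 80 and 89, and 8, 5 and 2 in males. Of the other lists, 0 of 55 other mitotic genes, 0 of 20 DNA replication genes and 0 of 12 MuvB genes were called as a mean over the sexes in edgeR, with 2, 0 and 2 at an unadjusted p under 0.05. The smallest adjusted p of the other mitotic genes were those of Spc25 (0.43, adjusted p = 0.558), the Cdk1-inhibiting kinase Pkmyt1 (-0.27, adjusted p = 0.575) and the condensin subunit Smc2 (0.19, adjusted p = 0.686). For replication they were those of the licensing factor Cdt1 (-0.33, adjusted p = 0.679), the chromatin assembly subunit Chaf1b (-0.26, adjusted p = 0.793) and the helicase component Gins2 (-0.26, adjusted p = 0.805). For MuvB they were those of its subunits Lin54 (0.14, adjusted p = 0.609), Lin9 (0.28, adjusted p = 0.618) and Lin37 (-0.15, adjusted p = 0.799).

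The difference of the diet effect between strains was tested itself, in 3 contrasts that share libraries with each other. Between NZO/HlLtJ and C57BL/6J, 14 of 34 members rose more in NZO/HlLtJ (background 9.67%), 24 had an unadjusted p under 0.05, and the median difference was 0.75. The 14 included 7 of the 8 genes of the passenger complex, central spindle and cytokinesis, of which Kif23 (1.42, SE 0.284, adjusted p = 0.000839), Birc5 (1.21, SE 0.403, adjusted p = 0.0308), Aurkb (1.04, SE 0.329, adjusted p = 0.024), Prc1 (0.88), Racgap1 (0.77, SE 0.147, adjusted p = 0.000547), Ect2 (0.74) and Kif20a (0.61) were called and Anln (0.54, adjusted p = 0.175) was not. The other 7 were Plk1 (1.16), Cdc20 (1.08), Bub1b (1.04), Ndc80 (0.92), Ccna2 (0.91), Cenpe (0.86) and Tpx2 (0.85). For the 3 members called in C57BL/6J itself, the difference between the strains was 0.48 (adjusted p = 0.094) for Kif11, 0.53 (adjusted p = 0.223) for Ccnb2 and 0.23 (adjusted p = 0.65) for Pbk. The count of 14 was sensitive: it was 1 with library totals in place of TMM factors, 3 without the 5 libraries with transcripts of another strain and 25 by limma on the deposited variance-stabilised values. Leaving out 1 library gave 5 without NZO/HlLtJ male replicate 2 on 10% fat and 25 without NZO/HlLtJ male replicate 3 on 10% fat. It gave 6 without NZO/HlLtJ male replicate 1 on 10% fat or replicate 3 on 44% fat, and 7 without C57BL/6J male replicate 2 on 10% fat. It gave 8 without NZO/HlLtJ female replicate 3 on 10% fat or replicate 2 on 44% fat, C57BL/6J female replicate 1 on 10% fat or C57BL/6J male replicate 3 on 44% fat.

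Between NZO/HlLtJ and CAST/EiJ, 33 of 34 members rose more in NZO/HlLtJ (background 13%), with a median difference of 1.46. The largest differences were those of Aurkb (2.05, SE 0.318, adjusted p = 4.15e-05) and Kif2c (2.02, SE 0.361, adjusted p = 0.000157), and Aurka was the member not called (0.19, SE 0.221, adjusted p = 0.57). This count stayed at 28 or more in every alternative that was run. Between CAST/EiJ and C57BL/6J no member was called by edgeR, against 0.0197% of all genes. The median was -0.67, 33 of 34 estimates were negative and 23 had an unadjusted p under 0.05, and DESeq2 called 1 member lower.

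The strains also differed in the level of the members on each diet. On 10% fat, 28 of 34 members were higher in NZO/HlLtJ than in C57BL/6J as a mean over the sexes (background 22.8%), with a median of 0.86, and 0 were lower. The largest difference was that of Nuf2 (1.72, SE 0.21, adjusted p = 1.51e-08), and those not called were Bub1b (-0.32), Kif23 (-0.35), Kif20a (0.21), Racgap1 (0.23), Prc1 (0.28) and Ect2 (0.37). These 6 were all among the 14 that rose more with diet in NZO/HlLtJ, a comparison that uses the same libraries on 10% fat. On 44% fat, 34 of 34 were higher in NZO/HlLtJ than in C57BL/6J (background 32.4%), with a median of 1.55 and a range from 0.72 for Bub1b to 2.19 for Birc5.

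CAST/EiJ stood above C57BL/6J on the control diet. On 10% fat, 30 of 34 members were higher (background 24.4%) and 2 lower (background 23.6%), with a median of 1.14. The largest were those of Nuf2 (2.64, SE 0.211, adjusted p = 1.27e-13) and Ttk (2.56, SE 0.262, adjusted p = 1.02e-10), more than 5-fold, and the 2 lower were Aurka (-0.40, SE 0.157, adjusted p = 0.0307) and Racgap1 (-0.65, SE 0.106, adjusted p = 2.16e-06). Bub1b (0.15) and Kif23 (0.16) were not called. On 44% fat, 9 of 34 were higher, a share close to the background of 24.8%, and the same 2 were lower (background 25.8%), with a median of 0.42. The 9 were Foxm1, Plk1, Pbk, Ttk, Cenpf, Ndc80, Nuf2, Tpx2 and Anln. Ttk (1.99) and Nuf2 (1.84) again led, and Racgap1 (-0.78, SE 0.101, adjusted p = 2.28e-08) and Aurka (-0.37, SE 0.148, adjusted p = 0.0354) were lower. Without the 5 libraries with transcripts of another strain, only replicate 3 of the CAST/EiJ females on 44% fat is left. The calls on 44% fat are therefore not given for that fit, and how far they depend on these libraries was not settled.

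Against CAST/EiJ, the place of NZO/HlLtJ changed with the diet. On 10% fat, 2 members were higher in NZO/HlLtJ, Aurka (1.07, SE 0.161, adjusted p = 4.87e-07) and Racgap1 (0.88, SE 0.109, adjusted p = 8.33e-09), with a background of 27.6%. On that diet 11 of 34 were lower, a share near the background of 27.2%. They were Ttk (-1.39, SE 0.253, adjusted p = 1.41e-05), Pbk (-1.0), Nuf2 (-0.92), Plk1 (-0.69), Ndc80 (-0.61), Cenpf (-0.59), Ccnb2 (-0.57), Aurkb (-0.55), Kif23 (-0.51), Bub1b (-0.47) and Kif20a (-0.40). In either direction 13 of 34 members were called on 10% fat, where 54.8% of all genes were. On 44% fat, 31 of 34 were higher in NZO/HlLtJ (background 36.2%), with a median of 1.21, and Pbk (0.32), Nuf2 (0.04) and Ttk (-0.31) were not called. Racgap1 (1.79, SE 0.106, adjusted p = 1.32e-17) had the smallest adjusted p there. The 13 calls on 10% fat fell to 6 (2 higher, 4 lower) with library totals, and to 5 without NZO/HlLtJ female replicate 3 or male replicate 2. They fell to 6 without NZO/HlLtJ male replicate 1, to 7 without CAST/EiJ male replicate 1 and to 8 without CAST/EiJ female replicate 3.

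**Figure D5:**
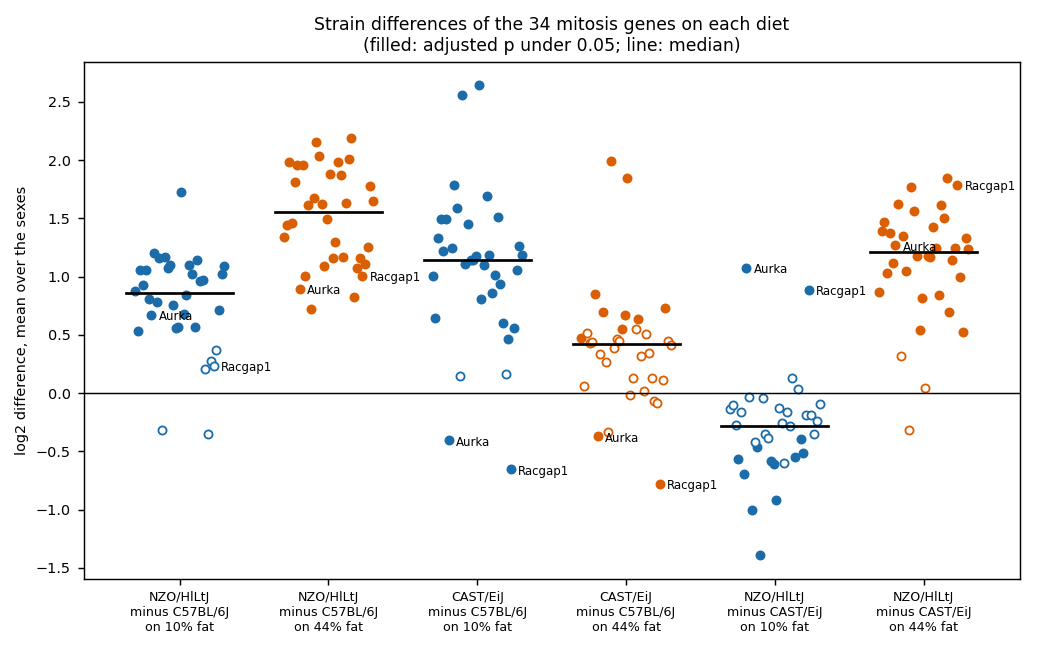
Log2 differences between strains for the 34 members on 10% fat (blue) and 44% fat (orange) as means over the sexes, with filled points for an adjusted p under 0.05 and lines at the medians. The median of NZO/HlLtJ minus CAST/EiJ lies at -0.28 on 10% fat and at 1.21 on 44% fat. Aurka and Racgap1 are the only members called lower in CAST/EiJ than in C57BL/6J, on either diet. They are also the only ones called higher in NZO/HlLtJ than in CAST/EiJ on 10% fat.

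Between CAST/EiJ and C57BL/6J, Ttk and Nuf2 were higher and Aurka and Racgap1 lower in CAST/EiJ on both diets. Over 16 libraries of C57BL/6J, Ttk ranged from 0.177 to 0.592 CPM, and over 15 of CAST/EiJ from 0.570 to 2.78 CPM, with a slight overlap. Nuf2 ranged from 0.325 to 1.43 CPM in C57BL/6J and from 2.44 to 4.92 CPM in CAST/EiJ, and these strains did not overlap. Racgap1 ranged from 9.33 to 14 CPM in C57BL/6J and from 4.80 to 8.41 CPM in CAST/EiJ, again without overlap and in the other direction. The submitters' processing notes name GRCm38, the reference of C57BL/6J, and the sources used here do not tell how sequence differences between strains were handled, so the part of read assignment in these strain differences was not tested. On 10% fat, 32 of 55 other mitotic genes were higher in CAST/EiJ than in C57BL/6J and 8 lower, where 24.4% and 23.6% of all genes were, with the smallest adjusted p for Mad1l1 (2.25, adjusted p = 5.61e-22), Pttg1 (-3.04, adjusted p = 1.07e-15) and Spc25 (-2.25, adjusted p = 5.84e-14).

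Differences between the sexes were few. In NZO/HlLtJ on 10% fat, 4 members were higher in males, Birc5 (1.30, SE 0.408, adjusted p = 0.0468), Aurkb (1.09, SE 0.333, adjusted p = 0.0401), Kif23 (1.01, SE 0.3, adjusted p = 0.0357) and Ccna2 (0.82, SE 0.26, adjusted p = 0.0493), against 6.44% of all genes called in either direction. In that comparison 33 of 34 estimates were positive, 24 had an unadjusted p under 0.05 and the median was 0.75. The count was 0 without male replicate 3, the library highest for 34 members, and 0 without female replicate 2 or 3. It was 1 without female replicate 1, 2 without female replicate 4, 9 without male replicate 2 and 12 without male replicate 1. It was also 0 with library totals, with only this strain in the fit and by limma on the deposited values, 2 without the low-count filter or with the older quasi-likelihood fit, 1 without the 5 libraries with transcripts of another strain and 8 by DESeq2. On 44% fat, Kif15 (0.83, SE 0.249, adjusted p = 0.0086) and Racgap1 (0.47, SE 0.151, adjusted p = 0.0149) were higher in males, against 34.7% of all genes called, and the count was 4 without female replicate 2 and 5 without male replicate 1. It was 1 with library totals or without the 5 libraries with transcripts of another strain, 4 by DESeq2 or with RLE factors, and 5 by limma on the deposited values.

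In C57BL/6J no member was called between the sexes by edgeR or DESeq2 on 10% fat (background 0.0886%, 0 at an unadjusted p under 0.05) or on 44% fat (background 0.0985%, 9 at an unadjusted p under 0.05, median 0.47). In CAST/EiJ none was called by either tool on 10% fat (background 0.133%) or on 44% fat (background 0.384%). On 10% fat 34 of 34 CAST/EiJ estimates were higher in males, with a median of 0.64 and 19 at an unadjusted p under 0.05, and on 44% fat the median was -0.06 with 0 at an unadjusted p under 0.05.

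By edgeR or DESeq2 on all libraries, the diet effect was not called as different between the sexes for any member in any of the 3 strains, and 1 member was called in NZO/HlLtJ without female replicate 1 on 10% fat. In NZO/HlLtJ, where 10% of all genes were called, 1 member had an unadjusted p under 0.05 and the median of male minus female was -0.63. In C57BL/6J, where 0% of all genes were called, 6 had an unadjusted p under 0.05 and the median was 0.52. In CAST/EiJ, where 0.0295% of all genes were called, 12 had an unadjusted p under 0.05, 34 of 34 estimates were negative and the median was -0.67, the largest differences being those of Kif23 (-1.09, SE 0.402, adjusted p = 0.78) and Bub1 (-1.04, SE 0.534, adjusted p = 1).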

How the data were processed

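Islet RNA of 45 libraries was sequenced after polyA selection and KAPA mRNA HyperPrep library preparation, per the labels' protocols. The deposited tables hold estimated counts per gene, of which 23.6% of values were not whole, and variance-stabilised log2 values that the authors made from them. The submitters' processing notes name GRCm38 and DESeq2 without a role, and no source used here names the aligner or the counter.

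Rounded counts were tested with edgeR 4.0.16 in R 4.3.3 (quasi-likelihood test, TMM factors, low-count filter over the 12 groups, 1 mean per group), which left 20306 of 22904 genes. Differences by diet, strain and sex and their interactions (27 comparisons) were called at a Benjamini-Hochberg adjusted p under 0.05 over all genes tested. Library totals were 57.2 to 109.95 M counts. CPM are TMM-scaled, lengths are exon unions of GENCODE M21, and promoters are RefSeq windows.

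The members, gene lists and the set of 5 libraries left out in an alternative were chosen with earlier results of these data known. All 34 members are named. Values in every library are given for Foxm1, Cdk1, Ccnb1, Plk1, Bub1b, Cenpe, Kif11, Aurkb, Birc5, Mki67 and Top2a, for the members with the largest and the smallest difference by diet in NZO/HlLtJ, and for those called for diet in another strain, and in NZO/HlLtJ alone for the members not called in its males. Racgap1 values in NZO/HlLtJ were added after they were seen. Other lists are given by counts, with their 3 smallest adjusted p for diet where these were not tied and with the MuvB genes called for diet within a strain. Alternatives were RLE factors, library totals, no low-count filter, the number series as a factor, only the strains compared, DESeq2 1.42.0, limma 3.58.1 on the deposited log2 values, the 5 libraries left out, each library left out in turn and, chosen after seeing the data, edgeR's older quasi-likelihood fit. The macrophage marker Itgam has a duplicated symbol and was not used.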

Additional observations from a re-analysis of the deposited data

Results flagged for a closer look

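For 11 members and the summed level of the 34, 108 sets of 4 libraries of 1 group were examined. In 9 of them an end value stood apart from the other 3 by the criterion of Dixon, which chance meets in about 1 group in 20. Both high and low values were among them. In C57BL/6J females on 10% fat, replicate 1 was high for Birc5 (0.637 CPM) and Top2a (6.06 CPM), and this library had the highest value of its group for 27 members. In C57BL/6J males on 10% fat, replicate 2 was high for Cenpe (1.77 CPM), and it was highest for 30 members. In CAST/EiJ females on 10% fat, replicate 1 was high for Kif11 (2.54 CPM) and Mki67 (14.5 CPM), and replicate 4, the library with the most acinar transcripts, was low for Foxm1 (2.62 CPM). In NZO/HlLtJ females, replicate 3 on 10% fat was low for Aurkb (0.334 CPM), and replicate 2 on 44% fat was high for Ccnb1 (8.195 CPM) and Mki67 (60.7 CPM).

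The diet effect differed between strains by a test of the difference itself for 14 members between NZO/HlLtJ and C57BL/6J (background 9.67%). Between NZO/HlLtJ and CAST/EiJ it differed for 33 members (background 13%), and the estimate was larger in NZO/HlLtJ for each member called. Leaving out 1 library in turn gave 5 to 25 members against C57BL/6J and 31 to 33 against CAST/EiJ. The count against C57BL/6J also fell with library totals and without the libraries with transcripts of another strain.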

How the results depend on the processing

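No paired analysis was possible because the replicate numbers follow the order of the samples and not a number in the labels, so equal numbers pair nothing. Over the 27 counts of called members, 529 recomputed counts lay within 1.5 times of the reported one and 74 did not. Recomputed counts are given without the share of all genes called in the same fit. A change particular to the members was therefore not told apart from a general one. For 30 named diet differences in NZO/HlLtJ and C57BL/6J none changed its direction. Of the fits leaving out 1 library, only the lowest and highest estimate of each difference entered the next numbers. Among these, 308 recomputed values stayed on their side of the threshold, 13 lost and 9 gained the call. With every left-out library counted, the mean call was lost in 16 of 25 alternatives for Ccnb2 and 10 for Pbk in C57BL/6J. For Aurka in NZO/HlLtJ it was lost in 9 of 23. In C57BL/6J it was gained in 6 of 25 for Top2a, 3 for Mki67, 2 for Cdk1 and 1 for Kif2c. Other named differences were followed only through the counts. Levels by library were not recomputed from the deposited log2 values.

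Without the 5 libraries with transcripts of another strain, the called members numbered 13 for diet in NZO/HlLtJ males, 1 for diet in C57BL/6J over both sexes and 1 in its males, 3 for the diet effect of NZO/HlLtJ minus C57BL/6J, and 1 each for sex in NZO/HlLtJ on 10% and on 44% fat. The count for CAST/EiJ minus C57BL/6J on 44% fat is not given, since only replicate 3 of the CAST/EiJ females was left. DESeq2 gave 11 for diet in C57BL/6J over both sexes, 9 in its males, 1 for the diet effect of CAST/EiJ minus C57BL/6J, and 8 and 4 for sex in NZO/HlLtJ on 10% and 44% fat. The limma test on the deposited values gave 1 and 1 for diet in C57BL/6J over both sexes and in males, 25 for NZO/HlLtJ minus C57BL/6J, and 0 and 5 for sex in NZO/HlLtJ. Library totals gave 1 for diet in C57BL/6J males, 1 for NZO/HlLtJ minus C57BL/6J, 6 for NZO/HlLtJ minus CAST/EiJ on 10% fat, and 0 and 1 for sex in NZO/HlLtJ. With only the strains compared in the fit the counts were 1 and 1 for diet in C57BL/6J over both sexes and in males, and 0 for sex in NZO/HlLtJ on 10% fat. Without the low-count filter, and with the older quasi-likelihood fit, diet in C57BL/6J males gave 1 and sex in NZO/HlLtJ on 10% fat gave 2. The number series as a factor gave 1 for diet in C57BL/6J males, and RLE factors gave 4 for sex in NZO/HlLtJ on 44% fat. Where a setting leaves out libraries or other strains, fewer libraries enter the fit; for the other settings the cause was not tested.

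Leaving out 1 library in turn gave 17 to 31 called members for diet in NZO/HlLtJ males, 1 to 8 for diet in C57BL/6J over both sexes and 1 to 8 in its males. The range was 5 to 25 for the diet effect of NZO/HlLtJ minus C57BL/6J and 0 to 1 for that of males minus females in NZO/HlLtJ. It was 5 to 17 for NZO/HlLtJ minus CAST/EiJ on 10% fat, and 0 to 12 and 2 to 5 for sex in NZO/HlLtJ on 10% and 44% fat. For diet in NZO/HlLtJ over both sexes and in females it was 33 to 34. With library totals the median over all genes moved by more than 0.1 on the log2 scale, to -0.15 for diet in NZO/HlLtJ over both sexes, where the members' median was 1.34, and to -0.24 for NZO/HlLtJ minus C57BL/6J, where it was 0.56.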
